A study of Homo sapiens with 9 samples.

Results

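A set of 38 genes of glycolysis and of the response to low oxygen was followed in HT29, a human colon cancer line. No label names a change in oxygen between the groups. The set was chosen by function: glucose transporters, the enzymes from hexokinase to lactate dehydrogenase, enzymes that set the flux through them, the hypoxia-inducible factors with their oxygen sensors, and well-known targets of those factors. Of the 38 genes, 37 were measured among 19775 genes in all, each by the probe set with the highest mean log2 on the 9 arrays, and SLC16A3 was not analysed here. Cells given caffeic acid (CA), a phenolic acid found in coffee, at 1.68 µg/mL, and cells given instant caffeinated coffee (ICC) at 7 µg/mL, both for 24 h, were set against cells that received no treatment (Control). Each group had 3 Affymetrix HG-U133 Plus 2.0 arrays, numbered 1 to 3 in the labels. The labels do not say whether the replicates came from separate cultures, so each p-value reflects only how far these arrays differ, which may be technical. With 3 arrays a group, precision is limited for every gene.

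Glycolysis splits glucose into pyruvate and makes ATP without oxygen, and lactate dehydrogenase turns the pyruvate into lactate so that the pathway can go on. When oxygen is low, the prolyl hydroxylases EGLN1 and EGLN3 no longer mark HIF-1α for destruction, and the factor, with its partner, binds a short motif near its targets and raises glycolytic enzymes, VEGFA and other genes. Many colon cancer cells use glycolysis heavily even with oxygen present. HIF-1α is governed mainly at the protein level, which these arrays do not measure, and the oxygen level during culture was not given in the labels.

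The arrays resembled each other closely, with correlations across genes between 0.995 and 0.998 and median intensities between 43.8 and 46.6. Of 11 markers of colon epithelium, 11 were measured and 0 lay below the median probe set (5.49 log2). PTPRC, the common leukocyte antigen, averaged 3.65 log2, while LYZ, lysozyme, was bright at 13.05. Of the fibroblast and endothelial markers 0 reached the upper quartile of 7.61, against 8 of the 11 markers of colon epithelium. Below the median probe set lay 3 of 5 fibroblast markers and 3 of 4 endothelial markers. The brightest of these were COL1A1 at 7.24 and PECAM1 at 6.12. Some control probe sets on the array stood apart on single arrays. The mean of the 18S ribosomal RNA probe sets was 10.3 log2 on ICC 2, against a median of 7.72 over the arrays, and that of the hybridization spikes, added after labelling, was 11.02 on CA 2 and 10.90 on ICC 1, against a median of 10.66. Values are log2 intensity throughout, and differences are log2 differences. Probe sets bind with different strengths, so levels are compared between arrays and not between genes.

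The promoters of the 4 genes that changed by replicate number, described further below, are shown here. The set was chosen by function and includes well-known targets of HIF, which binds near them. Whether HIF has a part in the differences by replicate number was not tested. HIF binding sites have the core ACGTG or GCGTG. Capitals mark these letters on either strand, in windows of 300 bases around a start of each gene taken from RefSeq on GRCh38.p14. Where a gene had several windows, the window with the most matches was printed. The letters CACGTG hold ACGTG on both strands and therefore count as a match on each. The windows are chr5:132227042-132227341 on the minus strand for P4HA2, chr12:6914330-6914629 on the plus strand for ENO2, chr2:74834920-74835219 on the plus strand for HK2 and chr2:86441121-86441420 on the plus strand for KDM3A, each printed 5′ to 3′ along its gene.
P4HA2: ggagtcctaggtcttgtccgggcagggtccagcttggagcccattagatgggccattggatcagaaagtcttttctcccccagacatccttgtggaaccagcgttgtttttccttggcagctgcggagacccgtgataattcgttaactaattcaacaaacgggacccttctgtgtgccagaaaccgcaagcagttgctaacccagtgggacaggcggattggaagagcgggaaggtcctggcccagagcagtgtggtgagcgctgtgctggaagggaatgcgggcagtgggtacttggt
ENO2: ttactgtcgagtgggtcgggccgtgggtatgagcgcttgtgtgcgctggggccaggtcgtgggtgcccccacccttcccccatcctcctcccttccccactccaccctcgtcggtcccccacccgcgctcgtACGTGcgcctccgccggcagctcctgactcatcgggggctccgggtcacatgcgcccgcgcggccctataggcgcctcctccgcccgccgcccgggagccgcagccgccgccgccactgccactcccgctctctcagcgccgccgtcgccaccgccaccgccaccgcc
HK2: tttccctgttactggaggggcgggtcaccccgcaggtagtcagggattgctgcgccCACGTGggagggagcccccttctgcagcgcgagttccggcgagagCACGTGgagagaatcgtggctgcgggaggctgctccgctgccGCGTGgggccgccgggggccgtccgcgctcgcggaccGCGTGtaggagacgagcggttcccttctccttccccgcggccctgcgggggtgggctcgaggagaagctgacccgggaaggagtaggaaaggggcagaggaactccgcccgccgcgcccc
KDM3A: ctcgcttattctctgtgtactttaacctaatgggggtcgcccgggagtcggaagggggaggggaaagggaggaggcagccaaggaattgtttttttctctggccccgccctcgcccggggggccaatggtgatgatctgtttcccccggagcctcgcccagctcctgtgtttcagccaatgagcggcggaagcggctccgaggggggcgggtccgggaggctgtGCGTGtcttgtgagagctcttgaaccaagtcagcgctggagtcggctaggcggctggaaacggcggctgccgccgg

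HK2 had 6 matches in this window, 4 of ACGTG and 2 of GCGTG. Its other window, chr2:74833877-74834176, had 2 of ACGTG and 1 of GCGTG. ENO2 had 1 match of ACGTG, KDM3A had 1 of GCGTG and P4HA2 had 0. Promoter windows were found for 33 of the 37 measured genes. SLC2A3, VEGFA, BNIP3L and NDRG1 had none. Because a gene can have several starts, the 33 genes had 59 windows, of which 40 (67.8%) held either motif, against 48.45% of 35116 windows of 27305 genes. ACGTG stood in 38.98% of the members' windows, against 21.41% of all, and GCGTG in 42.37%, against 36.54%. Known targets of HIF were chosen for the set, so a higher share there is not a result of these arrays. Windows of the same gene can overlap, and each was counted. A match is a description of the letters and not a binding site, and a window without one says nothing of the factor.

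Most of the pathway was bright and steady in every group. GAPDH, which oxidises glyceraldehyde 3-phosphate and is a common reference gene, averaged 14.02 ± 0.04 log2 in CA, 14.02 ± 0.02 in ICC and 14.03 ± 0.03 in Control (SD, n = 3 arrays each), and its 9 arrays lay within 0.08 of each other. LDHA, the lactate dehydrogenase subunit that favours lactate, averaged 13.38 ± 0.03 in CA, 13.41 ± 0.03 in ICC and 13.36 ± 0.08 in Control. LDHB, its partner subunit, had means of 13.57, 13.61 and 13.57 in CA, ICC and Control. The 3 groups overlapped for each of these enzymes, and their means differed by less than 0.1. In the middle of the pathway ALDOA, the main aldolase, had means of 13.02, 13.07 and 13.07 in CA, ICC and Control. ENO1, the common enolase, had 13.17, 13.22 and 13.19, and PGK1, phosphoglycerate kinase, had 12.83, 12.84 and 12.77. TPI1, triose phosphate isomerase, had means of 12.34, 12.43 and 12.29, GPI, which converts glucose 6-phosphate, had 12.10, 12.18 and 12.10, and PGAM1, phosphoglycerate mutase, had 12.30, 12.35 and 12.28. The range over the 9 arrays was under 0.3 for 14 of the 37 genes and over 1 for 3, which were VEGFA (1.50), ADM (1.43) and ENO2 (1.20).

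The glucose transporters spread more widely over the arrays than GAPDH or LDHA. SLC2A1, the glucose transporter GLUT1, read 10.44, 10.52 and 10.40 in CA, 10.37, 10.49 and 10.41 in ICC, and 10.64, 10.36 and 10.37 in Control, in the order of the replicate numbers. Only Control 1 stood above the others, and the 3 groups overlapped. SLC2A3, the transporter GLUT3, was dim, with means of 4.52 in CA, 4.46 in ICC and 4.31 in Control, and lay below the median probe set, as did BNIP3, a mitochondrial protein that promotes the removal of mitochondria, with 3.50, 3.69 and 3.63. HK1, the housekeeping hexokinase, had means of 10.58, 10.65 and 10.60, and the phosphofructokinases PFKL, PFKM and PFKP, which commit sugar to the pathway, had 8.50, 9.83 and 10.51 in CA, 8.56, 9.84 and 10.61 in ICC, and 8.51, 9.89 and 10.54 in Control. ALDOC, the aldolase best known from brain, had means of 7.66, 7.85 and 7.74.

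The regulators were measured over a wider range of brightness. HIF1A, the oxygen-regulated subunit of HIF-1, averaged 11.72 ± 0.10 in CA, 11.65 ± 0.05 in ICC and 11.65 ± 0.09 in Control (SD, n = 3 arrays each), and EPAS1, the related HIF-2α, 8.49 ± 0.16, 8.42 ± 0.04 and 8.48 ± 0.11. EGLN1 had means of 9.74, 9.70 and 9.67 and EGLN3 of 5.98, 6.09 and 6.19. PFKFB4, which like PFKFB3 makes the activator of phosphofructokinase, had 6.26, 6.24 and 6.15. PDK1, a kinase that blocks the entry of pyruvate into the citrate cycle, had 8.50, 8.47 and 8.40. Among the targets, ANGPTL4, a secreted inhibitor of lipoprotein lipase, had 5.98, 6.04 and 6.02, BNIP3L, a relative of BNIP3, had 8.21, 8.04 and 8.08, and NDRG1, a stress-responsive protein, had 6.84, 6.93 and 7.07. ANKRD37, an ankyrin repeat protein, had 5.95, 5.94 and 6.01, and MXI1, an antagonist of MYC, had 9.52, 9.66 and 9.65. The plot of levels shows that the arrays of the 3 groups lie together for most genes.

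**Figure D1:**
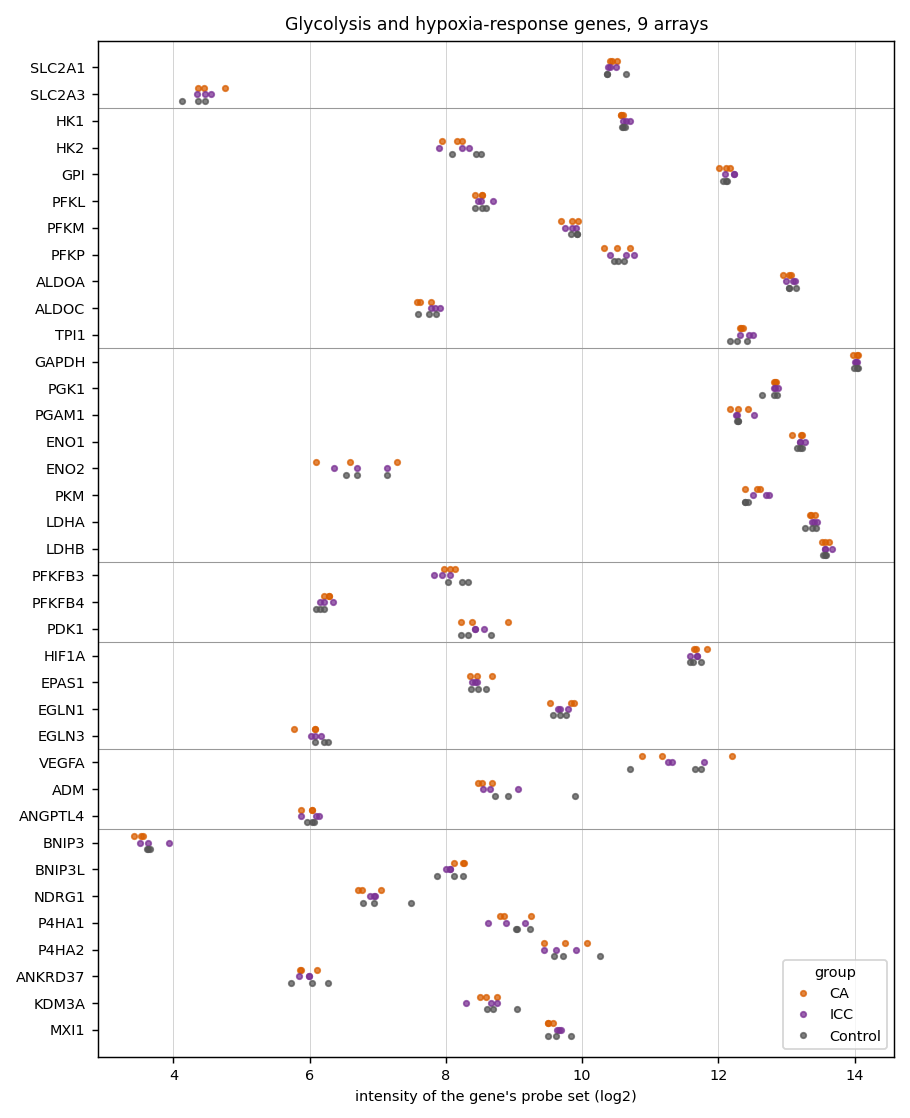
Log2 intensity (horizontal axis) of each of the 37 measured genes on the 9 arrays, with CA arrays in orange, ICC in purple and Control in grey, and grey lines between the roles. Most genes show 9 points close together, and VEGFA, ADM and ENO2 spread over more than 1 log2.

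Caffeic acid was set against no treatment to find which genes respond to this coffee phenol. Among the 37 genes, that with the smallest p was ADM, adrenomedullin, a secreted vasodilator peptide and hypoxia target. It read 8.67, 8.47 and 8.52 in CA 1, CA 2 and CA 3, against 8.91, 9.89 and 8.73 in Control 1, 2 and 3. All CA arrays lay below all Control arrays, and Control 2 stood far above every other array. The difference was -0.62 ± 0.25 (SE; 1.54-fold, 95% interval -1.19 to -0.06, p 0.0332, adjusted p 0.996), and without Control 2 it was -0.27. EGLN3 read 6.08, 5.77 and 6.09 in CA, against 6.09, 6.27 and 6.22 in Control, a difference of -0.21 ± 0.096 (adjusted p 0.996). It rested largely on CA 2, without which it was -0.11. The other EGLN3 probe set, which is slightly dimmer, differed by -0.02. HK2, the inducible hexokinase, read 7.94, 8.23 and 8.17 in CA, against 8.10, 8.44 and 8.52 in Control. CA was lower in 3 of 3 same-numbered pairs, by -0.16, -0.21 and -0.35, while the groups overlapped (-0.24 ± 0.14, adjusted p 0.996). The other HK2 probe sets, which are dimmer, differed by 0.08 and -0.08. SLC2A3 differed by 0.21 ± 0.12 (adjusted p 0.996), and its dimmer probe sets by -0.07 and -0.02.

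Over the set, 0 of 37 genes passed at an adjusted p under 0.05, as did 0% of all genes. With the replicate number as a block, 3 of all genes (0.0152%) passed and 0 of the 37. The unadjusted p was under 0.05 for 1 gene of the 37 (ADM), against 4.47% of all genes, and with the block for 3 (HK2, ADM and EGLN3, all lower), against 8.54%. The 3 CA arrays lay clear of the 3 Control arrays for 2 genes, ADM and BNIP3, both lower, against 7.86% of all genes. BNIP3 was dim, at a mean of 3.61 log2, and differed by -0.13. Its other probe set, also dim, differed by 0.14. The 3 same-numbered pairs differed in 1 direction for 10 of the 37 genes, 3 higher and 7 lower, against 27.7% of all genes. Each of these shares is close to or under that of all genes. The differences over the 37 genes had a median of -0.018, against 0.0027 over all genes, and ran from -0.62 (ADM) to 0.21 (SLC2A3). GAPDH differed by -0.01 ± 0.062, LDHA by 0.02 ± 0.067, SLC2A1 by -0.00 ± 0.087, HIF1A by 0.06 ± 0.079 and VEGFA by 0.05 ± 0.34 (adjusted p 1 for each). In the model without the block, the 95% interval lay within 0.5 of 0 for 31 of the 37 genes. Larger changes lie outside the interval for these genes. VEGFA was not among them, with an interval from -0.71 to 0.81.

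Instant coffee was set against no treatment, with the same Control arrays, to ask what the beverage as a whole changes. PKM, pyruvate kinase, the last step before pyruvate, read 12.69, 12.50 and 12.75 in ICC, against 12.39, 12.44 and 12.39 in Control. All ICC arrays lay above all Control arrays, with a difference of 0.24 ± 0.086 (1.18-fold, 95% interval 0.05 to 0.43, p 0.019, adjusted p 0.614). A dimmer probe set of PKM differed by -0.06. PFKFB3, which makes fructose 2,6-bisphosphate and so speeds up phosphofructokinase, read 7.83, 8.07 and 7.94 in ICC, against 8.04, 8.33 and 8.23 in Control. ICC was lower in 3 of 3 pairs, by -0.21, -0.26 and -0.29, although ICC 2 lay above Control 1 (-0.25 ± 0.095, 1.19-fold, 95% interval -0.46 to -0.04, p 0.0224, adjusted p 0.625). TPI1 differed by 0.14 ± 0.081 (adjusted p 0.689), with ICC 2 below Control 2. ADM read 8.65, 9.06 and 8.54 in ICC and differed by -0.43 ± 0.25 (adjusted p 0.699), and without Control 2 by -0.07.

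In ICC against Control, 0 of 37 genes passed at an adjusted p under 0.05, with or without the block, as did 0% of all genes in both models. The unadjusted p was under 0.05 for 2 genes, PKM and PFKFB3, against 7.73% of all genes. With the block it was under 0.05 for 7 of the 37 (18.9%), against 12.4% of all genes: PKM was higher, and PFKFB3, HK2, ADM, KDM3A, P4HA1 and P4HA2 were lower, with adjusted p from 0.334 to 0.399. The arrays of ICC lay clear of those of Control for 1 gene, PKM, against 12% of all genes. The 3 pairs differed in 1 direction for 8 genes, 2 higher and 6 lower, against 33.3% of all genes. Without the block these shares lay under those of all genes, and with it the share at an unadjusted p lay above. The median difference of the 37 genes was 0.016, against 0.028 over all genes, and 30 of the 37 intervals lay within 0.5 of 0. GAPDH differed by -0.01 ± 0.062 (adjusted p 0.986), LDHA by 0.05 ± 0.067 (0.886), SLC2A1 by -0.03 ± 0.087 (0.953), HIF1A by -0.00 ± 0.079 (0.997) and VEGFA by 0.09 ± 0.34 (0.964).

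Some genes lay below Control in both treatments. HK2 differed by -0.24 in CA and -0.20 in ICC. KDM3A, a histone demethylase induced by hypoxia, differed by -0.16 and -0.21. P4HA1, a subunit of the enzyme that hydroxylates collagen, differed by -0.13 and -0.21. The dimmer probe sets of HK2 differed by 0.08 and -0.08 in CA, and by 0.09 and 0.19 in ICC. That of KDM3A differed by 0.04 in CA and 0.0023 in ICC, and that of P4HA1 by 0.13 and 0.14. The share of all genes that lay lower in both treatments was not counted. Both comparisons use the same 3 Control arrays, so a shift of those arrays moves both, and the likeness is no separate evidence. The plot of differences shows these values with their intervals.

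**Figure D2:**
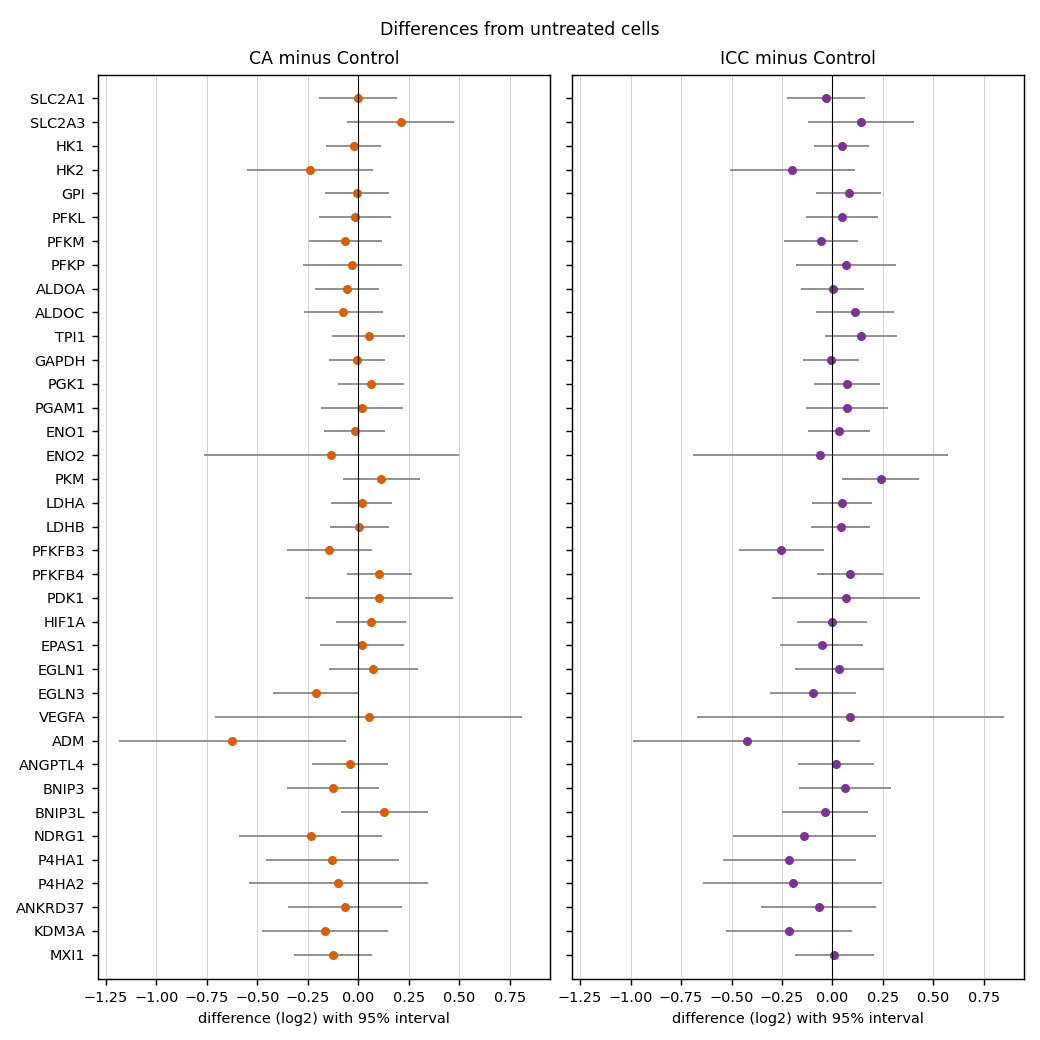
Log2 difference (horizontal axis) of CA minus Control (left, orange) and ICC minus Control (right, purple) for the 37 genes, with 95% intervals from limma. The intervals come from the model without the replicate block. Most intervals cross 0, and the widest are those of VEGFA, ENO2 and ADM.

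Instant coffee was also set against caffeic acid, to ask whether the beverage differs from this phenol alone at the doses used, which are 7 µg/mL of a mixture and 1.68 µg/mL of a compound. ALDOC read 7.92, 7.85 and 7.78 in ICC, against 7.78, 7.58 and 7.63 in CA, with ICC higher in 3 of 3 pairs and ICC 3 level with CA 1 (0.19 ± 0.088, 95% interval -0.01 to 0.38, adjusted p 1). BNIP3 differed by 0.19 ± 0.10, BNIP3L by -0.17 ± 0.096 and MXI1 by 0.14 ± 0.087 (adjusted p 1 for each). Of the 37 genes 0 passed at an adjusted p under 0.05, as did 0% of all genes, and with the block 1 of all genes (0.00506%) passed and 0 of the 37. The unadjusted p was under 0.05 for 0 of 37, against 2.69% of all genes, and with the block for 0, against 5.96%. The arrays lay clear of each other for 3 genes, HK1 and MXI1 higher and BNIP3L lower in ICC, against 5.87% of all genes. The 3 pairs differed in 1 direction for 10 genes, 8 higher and 2 lower, against 24.2% of all genes. Of the 17 glycolytic enzymes 16 lay above 0, with a median of 0.056, where 60.6% of all genes lay above 0 with a median of 0.024. Of 20 further glycolysis genes, described below with the other lists, 11 lay above 0 and 9 below. Their median of 0.023 was close to that of all genes. GAPDH differed by -0.00 ± 0.062, LDHA by 0.03 ± 0.067, SLC2A1 by -0.03 ± 0.087, HIF1A by -0.06 ± 0.079 and VEGFA by 0.04 ± 0.34 (adjusted p 1 for each). For 33 genes the interval lay within 0.5 of 0, which does not show that the treatments act alike.

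CA 2 and ICC 1 stood at the ends of the range for many enzymes. CA 2 was the lowest of the 9 arrays for 16 of the 37 genes (43.2%, against 15.6% of all genes) and for 11 of the 17 enzymes, which lay there at a median of -0.09 from their own means. ICC 1 was the highest for 12 of the 37 (32.4%, against 26.0% of all genes) and for 9 of the 17 enzymes, at a median of 0.09. These are also the arrays with the brightest hybridization spikes, at 11.02 on CA 2 and 10.90 on ICC 1, and their part in the result was not tested. Both arrays were picked because they stood at those ends for these same enzymes. Leaving either out therefore lowers the difference largely by construction and is no separate check. Without CA 2, ICC minus CA lay above 0 for 13 of the 17 enzymes, with a median of 0.018, against 58.5% of all genes with a median of 0.020. Without ICC 1 it did so for 12 of the 17, with a median of 0.026, against 51.4% of all genes with a median of 0.0031. Over the 37 genes the median was 0.011 without CA 2 and 0.014 without ICC 1, and 0.038 with all arrays.

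The replicate number separated the arrays more than the treatments did. In the median gene of the set, the number accounted for 44.9% of the sum of squares over the 9 arrays and the group for 19.3%, against 31.8% and 21.8% over all genes. The number accounted for more than the group and the remainder together in 18 of the 37 genes (48.6%), against 28.9% of all genes. P4HA2, a subunit of the enzyme that hydroxylates collagen, had the highest share at 87.0%, followed by ENO2 at 83.2%, PFKP at 79.3% and PDK1 at 75.3%. The labels do not say what the number marks, such as a day or a culture. The map of deviations shows the blocks of colour that run along a number across all 3 groups.

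**Figure D3:**
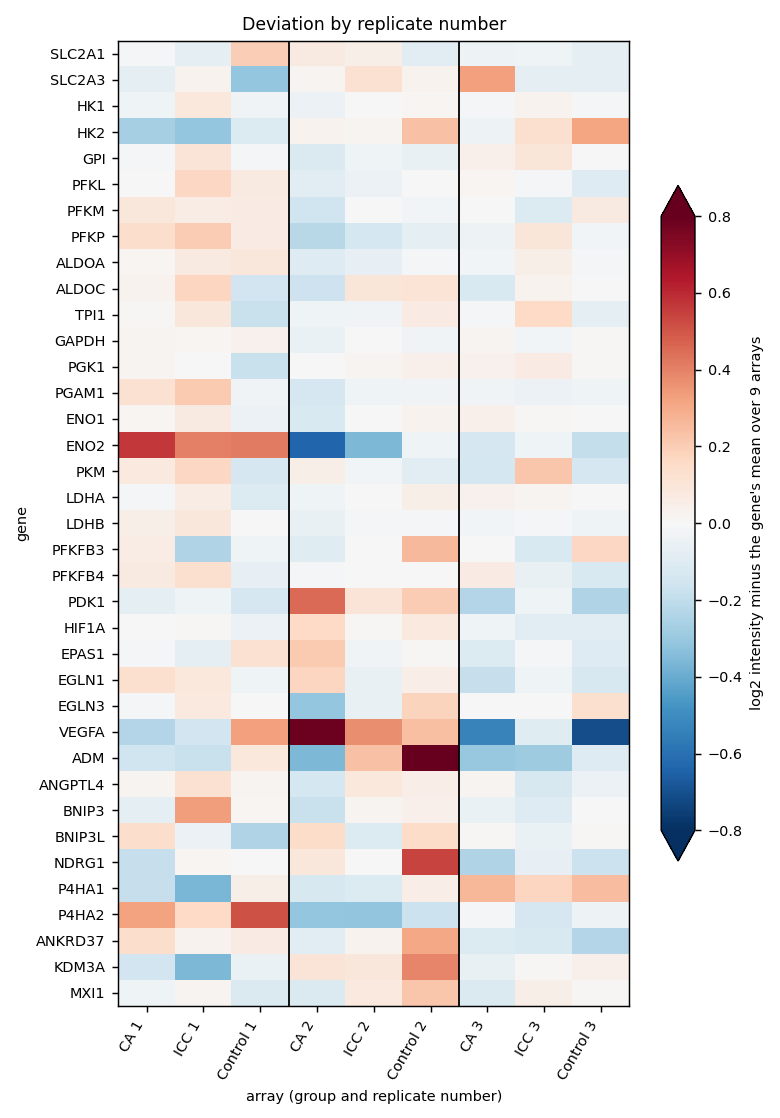
Log2 intensity of each gene minus its mean over the 9 arrays, by array, with the arrays ordered by replicate number and, within a number, as CA, ICC and Control; red is above and blue below the gene's mean. ENO2 and P4HA2 are red in all 3 arrays of number 1, and VEGFA and PDK1 are red in all 3 of number 2 and blue in all 3 of number 3.

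In the arrays of replicate 1, against the mean of those of replicates 2 and 3, 4 of the 37 genes passed at an adjusted p under 0.05, against 5.07% of all genes (1003 genes, 796 of them higher). P4HA2 rose in replicate 1. It read 10.07, 9.91 and 10.26 in CA 1, ICC 1 and Control 1, against 9.44, 9.44 and 9.58 in the arrays of replicate 2 and 9.74, 9.62 and 9.72 in those of replicate 3, in the same order of groups. Every array of replicate 1 lay above every array of the others, by 0.49 ± 0.063 on average (1.41-fold, adjusted p 0.0021), and the dimmer probe sets of P4HA2 differed by 0.31 and -0.01. With the mean of its probe sets P4HA2 differed by 0.26 and did not pass (adjusted p 0.0617). ENO2, the enolase best known from neurons, also rose. It read 7.29, 7.13 and 7.14 in replicate 1, against 6.09, 6.36 and 6.69 in replicate 2 and 6.59, 6.69 and 6.54 in replicate 3 (0.69 ± 0.11, 1.62-fold, adjusted p 0.0060). Replicate 1 again lay clear of the other 6 arrays. ENO2 has a single probe set on the array.

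HK2 and KDM3A fell in replicate 1. HK2 read 7.94, 7.90 and 8.10 in CA 1, ICC 1 and Control 1, against 8.23, 8.23 and 8.44 in replicate 2 and 8.17, 8.34 and 8.52 in replicate 3. Replicate 1 was lower in each of the groups, by 0.34 ± 0.060 on average (difference -0.34, 1.27-fold, adjusted p 0.010). The other HK2 probe sets differed by -0.03 and 0.20, and with the mean of its probe sets HK2 differed by -0.06 and did not pass (adjusted p 0.553). It also did not pass without Control 1 (adjusted p 0.0591) or without ICC 1 (0.0758). KDM3A read 8.50, 8.29 and 8.61 in replicate 1, against 8.76, 8.74 and 9.05 in replicate 2 and 8.59, 8.66 and 8.69 in replicate 3 (-0.28 ± 0.069, adjusted p 0.043). Control 1 lay above CA 3, and the call was lost in 8 of 9 cases when 1 array was left out, with adjusted p from 0.0502 to 0.244. It passed without CA 2 (0.0499). The call was also lost without the group term (0.1003), with array weights (0.0507) and with the mean of its probe sets (-0.15, 0.125).

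At an unadjusted p under 0.05, 7 of the 37 genes differed between replicate 1 and the others, against 19.7% of all genes. Replicate 1 lay outside both other arrays of its group, in the same direction in 3 of 3 groups, for 8 genes, 5 higher and 3 lower, against 17.6% of all genes. Among these, PFKP differed by 0.21 ± 0.061 (adjusted p 0.0893) and P4HA1 by -0.25 ± 0.069 (0.0693). The other subunit gene, P4HA2, was higher where P4HA1 was lower. VEGFA differed by -0.03 ± 0.17 (adjusted p 0.949), GAPDH by 0.03 ± 0.054 (0.797), LDHA by -0.03 ± 0.060 (0.833), SLC2A1 by 0.06 ± 0.073 (0.729) and HIF1A by -0.02 ± 0.056 (0.913). The median over the 37 genes was 0.023, against 0.027 over all genes.

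Between replicate 2 and replicate 3, 0 of the 37 genes passed at an adjusted p under 0.05, against 1.73% of all genes (343 genes). VEGFA, the growth factor that draws in blood vessels and a classic HIF target, came closest. It read 12.19, 11.78 and 11.65 in CA 2, ICC 2 and Control 2, against 10.87, 11.32 and 10.70 in CA 3, ICC 3 and Control 3. All arrays of replicate 2 lay above all arrays of replicate 3, by 0.91 ± 0.20 on average (1.88-fold, 95% interval 0.48 to 1.35, adjusted p 0.0513), and the arrays of replicate 1, at 11.17, 11.26 and 11.74, overlapped both. Its 4 probe sets all differed in this direction, by 0.78 to 0.93. VEGFA passed under 6 alternatives, among them the model without the group term (adjusted p 0.0439) and the fit without Control 1 (0.0251). When 1 array was left out, it passed only without Control 1 or without ICC 3. Without CA 2 it differed by 0.68 (adjusted p 0.218). VEGFA also did not pass with the mean of its probe sets, or when genes below the lower quartile of brightness were left out. PDK1 read 8.91, 8.56 and 8.66 in replicate 2, against 8.22, 8.42 and 8.22 in replicate 3 (0.42 ± 0.095, 1.34-fold, adjusted p 0.060). Its arrays did not overlap either, and its other probe sets differed by 0.45 and -0.21. PDK1 passed after quantile normalization (adjusted p 0.0406) and with array weights (0.0445). NDRG1 read 7.04, 6.95 and 7.49 in replicate 2, against 6.70, 6.88 and 6.78 in replicate 3 (0.37 ± 0.11, adjusted p 0.132), with Control 2 the highest and ICC 2 close to ICC 3. P4HA1 read 8.86, 8.88 and 9.04 in replicate 2, against 9.25, 9.16 and 9.23 in replicate 3, and lay lower in replicate 2 in each group (-0.29 ± 0.080, adjusted p 0.108). Its dim second probe set differed by 0.09.

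At an unadjusted p under 0.05, 10 of the 37 genes differed between replicates 2 and 3, against 14.4% of all genes. Replicate 2 stood on 1 side of replicate 3 in 3 of 3 groups for 11 genes, 6 higher and 5 lower, against 33.3% of all genes. Among the 37 genes, the enzymes and the other targets of hypoxia lay mostly on different sides of 0. Of the 17 glycolytic enzymes 16 lay below 0, with a median of -0.029, and of the 11 hypoxia targets outside glycolysis 9 lay above 0, with a median of 0.083, while 48.8% of all genes lay above 0. Within the groups the enzymes did not share this direction: 15 of 17 lay lower in CA 2 than in CA 3 and 12 of 17 lower in ICC 2 than in ICC 3, but 6 of 17 lower in Control 2 than in Control 3. CA 2 was the lowest array for 11 of them. Of the 11 targets 5 lay higher in CA 2 than in CA 3, 8 in ICC 2 than in ICC 3 and 9 in Control 2 than in Control 3. The enzymes' differences were small, from -0.22 for ENO2 to 0.04 for ALDOC, and those of the targets ran from -0.29 for P4HA1 to 0.91 for VEGFA. The further lists described below went the other way. Of 20 further glycolysis genes 14 lay above 0 and 6 below, with a median of 0.072. Of 33 further hypoxia targets 12 lay above 0 and 21 below, with a median of -0.058. ADM differed by 0.54 ± 0.19, which rested on Control 2 and ICC 2, since CA 2 lay below CA 3. GAPDH differed by -0.03 ± 0.063 (adjusted p 0.894), LDHA by -0.01 ± 0.069 (0.961), SLC2A1 by 0.06 ± 0.085 (0.831) and HIF1A by 0.15 ± 0.065 (0.312). The 18S ribosomal RNA probe sets read 7.72, 10.3 and 7.36 in CA 2, ICC 2 and Control 2. They read 8.65, 7.05 and 8.47 in CA 3, ICC 3 and Control 3, and so were higher in replicate 2 in ICC alone. Their part in the differences between the replicates was not tested.

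**Figure D4:**
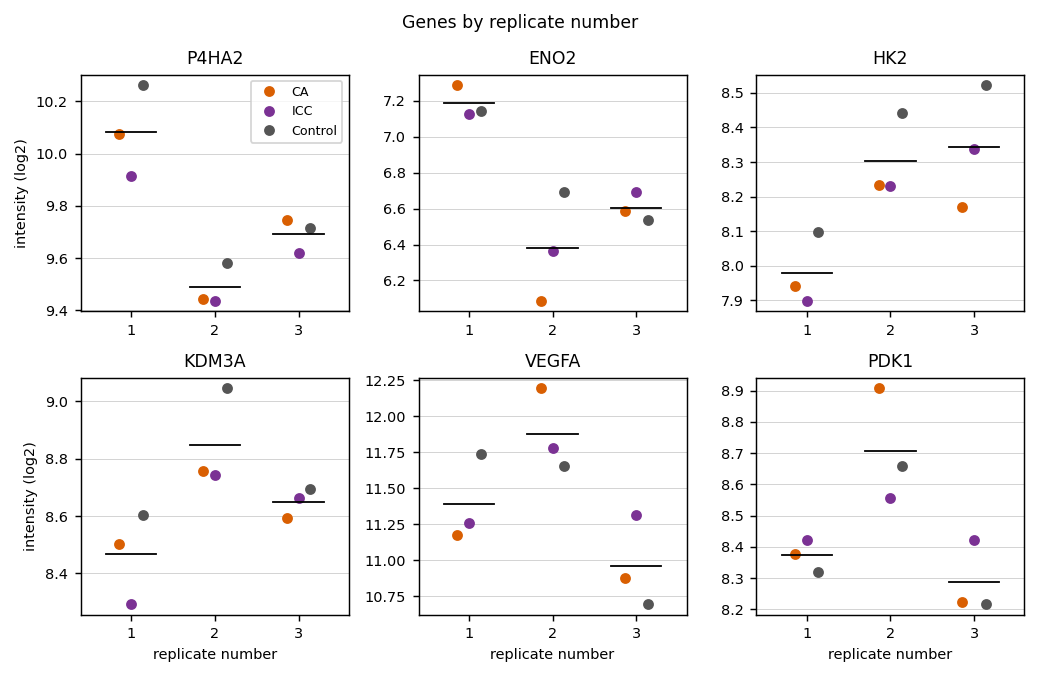
Log2 intensity (vertical axis) of 6 genes by replicate number, with 1 point for each of CA (orange), ICC (purple) and Control (grey) and a bar at the mean of the 3; the vertical axes differ. P4HA2 and ENO2 are highest and HK2 and KDM3A lowest in replicate 1, and VEGFA and PDK1 are higher in replicate 2 than in replicate 3.

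Other genes of the same pathways were taken from lists named by function. In CA against Control, ICC against Control and ICC against CA, 0 passed of 20 further glycolysis genes, 33 further hypoxia targets, 12 regulators of HIF, 16 genes of gluconeogenesis and pyruvate entry and 22 of the citrate cycle and respiration. By replicate number some passed. The largest was DDIT4, a stress-induced inhibitor of mTOR that hypoxia raises. It read 12.49, 11.96 and 11.67 in CA 2, ICC 2 and Control 2, against 9.72, 11.05 and 9.19 in CA 3, ICC 3 and Control 3, and 11.03, 11.39 and 11.82 in the arrays of replicate 1. Replicate 2 lay above replicate 3 in each group, by 2.05 ± 0.37 on average (4.14-fold, adjusted p 0.0308), and ICC 3 was the highest of replicate 3. CXCR4, a chemokine receptor and hypoxia target, fell by 0.42 (adjusted p 0.0338), so 2 of the 33 targets passed there, 1 in each direction, against 1.73% of all genes. SIRT1, a deacetylase that acts on HIF proteins, rose by 0.40 (0.0394, 1 of 12) and SLC16A7, a monocarboxylate transporter, fell by 0.38 (0.0362, 1 of 20). Without the group term DDIT4 passed (0.0341), and CXCR4 (0.185), SIRT1 (0.0619) and SLC16A7 (0.104) did not.

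In replicate 1 against the others, 2 of the 33 further hypoxia targets rose and 3 fell, where 5.07% of all genes passed. TMEM45A, a transmembrane protein induced by hypoxia, read 5.12, 5.22 and 5.68 in CA 1, ICC 1 and Control 1, and averaged 5.34 in replicate 1, against 4.62 in replicate 2 and 4.55 in replicate 3. Its arrays of replicate 1 lay above all others, by 0.76 ± 0.084 (1.69-fold, adjusted p 9.0e-04). CA12, a carbonic anhydrase, fell by 0.41 (adjusted p 0.0125), WSB1, a ubiquitin ligase component, by 0.27 (0.0417) and AK4, a mitochondrial adenylate kinase, by 0.24 (0.0401). PLOD1, a lysyl hydroxylase of collagen, rose by 0.24 (0.0497). Without the group term TMEM45A (0.0105) and CA12 (0.0383) passed, and AK4 (0.162), WSB1 (0.0819) and PLOD1 (0.0584) did not. OGDH, a citrate cycle enzyme, rose by 0.31 (0.0164), the only 1 of 22 genes of the citrate cycle and respiration to pass. Of the 11 markers of colon epithelium 5 lay above 0 and 6 below, and 1 passed, LGALS4, a galectin, which fell by 0.45 (0.0043). Of 3 leukocyte markers 1 lay above 0 and 2 below, and 1 passed, LYZ, which fell by 0.32 (0.0123). In replicate 2 against replicate 3, 4 of the 11 markers of colon epithelium lay above 0 and 7 below, and LGALS4 rose by 0.44 (0.0287, without the group term 0.105). Their part in these differences was not tested.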

How the data were processed

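Intensity was deposited for 54675 probe sets on 9 arrays, 3 each of CA, ICC and Control. RMA had been applied to the deposited intensity values, per the notes of the submitters on processing, and GeneSpring GX is named in the series' design text. The RMA version is not given in the sources used here. A log2 scale had been assumed, but the deposited values are linear, so their log2 was taken, with no pseudocount. Of the probe sets, 41091 had 1 gene symbol, and 62 controls, 1801 with several symbols and 11721 with none or unlisted were left out. For each of 19775 genes the probe set with the highest mean was kept. Of the 37 measured members 25 had several.

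The test was limma's (version 3.58.1, R 4.3.3) over all genes and arrays, with Benjamini-Hochberg adjustment and a threshold of 0.05. The treatment contrasts came from a model of the 3 groups, and the contrasts of replicate numbers from a model of group and number. An exact permutation test of 3 arrays against 3 cannot go below 0.1, and sign flips of 3 pairs cannot go below 0.25. Deviations from the group means correlated at 0.327 to 0.518 in 9 of 9 same-numbered pairs. The numbers were therefore taken to pair the arrays, but only in the replicate block and in the counts of same-numbered pairs. Standard errors, intervals and p-values of the treatment contrasts ignore this pairing unless the block is named. With the block, the standard error was lower for 30 of the measured members in each treatment contrast. The contrasts of numbers were made with this known.

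In every contrast the text names the members that passed or the 4 with the smallest p, together with GAPDH, LDHA, SLC2A1, VEGFA and HIF1A, and at most 4 genes of each further list. PLOD1, LGALS4, LYZ, the genes whose arrays lay clear of each other, those lower in both treatments and those that differed between replicates at an unadjusted p under 0.05 were named after their values were seen. The members and lists were chosen with earlier results of these data known. The test was checked on simulated data with 19775 genes, 200 of them changed. For CA minus Control it recovered 69% of changes of 0.5 log2 and 100% of 1 log2, and for ICC minus Control 81% and 99%. It also called 13 and 8 unchanged genes in these contrasts. The simulated noise was independent between genes and arrays and held no effect of the replicate number, so recovery on the real arrays may differ. Alternatives were the replicate block, other scalings, other choices of probe set, array weights and leaving out each array. Plots used matplotlib 3.10.9 and Python 3.11.15.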

Additional observations from a re-analysis of the deposited data

Results flagged for a closer look

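The control probe sets for 18S ribosomal RNA, which the comparisons do not use, were brighter on CA 3 (8.65 log2) and ICC 2 (10.3 log2) than on any Control array, of which the highest read 8.47. The other CA and ICC arrays did not exceed that level.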

How the results depend on the processing

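Of 710 alternative values for 44 results on named genes, 637 kept their direction and their side of the threshold, 15 lost the threshold, 8 passed it and 50 changed sign. With the replicate number as a block (replicate block), CA minus Control called 3 genes and ICC minus CA 1, against 0 without it, none of them among the 37, and it changed no call on a named gene. The median of the 37 genes in ICC minus CA, 0.038, was 0.0080 after centring each array, 0.016 when those ending in _x_at or _s_at were left out and 0.011 to 0.065 with 1 array left out. In replicate 1 minus the others, members called numbered 1 when probe sets were averaged per gene and 2 to 4 with 1 array left out, and all genes called 1733 with probe sets tested singly and 337 to 939 with 1 array left out. In replicate 2 minus replicate 3, all genes called numbered 214 without the group term and 6 to 360 with 1 array left out (6 without CA 3, 8 without Control 3), and members called 1 without the group term, 1 after centring, 2 after quantile normalization, 2 with array weights and 0 to 1 with 1 array left out. In CA minus Control, SLC2A1 was 0.0013 after centring, 0.0092 with the mean of probe sets, 0.021 without _x_at or _s_at sets and 0.022 with array weights, and with the mean of probe sets GAPDH was 0.013 and VEGFA -0.083. With 1 array left out GAPDH ran from -0.023 to 0.017, LDHA from -0.027 to 0.049, SLC2A1 from -0.050 to 0.089 and VEGFA from -0.34 to 0.32. In ICC minus Control, SLC2A1 was 0.0050 with the mean of probe sets, 0.040 without _x_at or _s_at sets and 0.0079 with array weights, and GAPDH was 0.0091 with the mean. With 1 array left out GAPDH ran from -0.023 to 0.0063, SLC2A1 from -0.078 to 0.062, VEGFA from -0.24 to 0.28 and HIF1A from -0.037 to 0.047. In ICC minus CA without _x_at or _s_at sets BNIP3 was -0.027, against 0.19 in the report, and SLC2A1 0.019, and with 1 array left out GAPDH ran from -0.024 to 0.013, SLC2A1 from -0.062 to 0.0044 and VEGFA from -0.23 to 0.43. In replicate 1 minus the others, SLC2A1 was -0.037 and VEGFA 0.070 with the mean of probe sets, SLC2A1 was -0.13 without _x_at or _s_at sets, and with 1 array left out LDHA ran from -0.073 to 0.018, SLC2A1 from -0.050 to 0.13, VEGFA from -0.33 to 0.14 and HIF1A from -0.048 to 0.0056. In replicate 2 minus replicate 3, P4HA1 was 0.090 without _x_at or _s_at sets, against -0.29 in the report, and LDHA ran from -0.062 to 0.0097 with 1 array left out. The causes were not tested.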
